A study of Mus musculus with 12 samples.

Results

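Aldehyde dehydrogenases (ALDHs) are enzymes that oxidize aldehydes to carboxylic acids, most of them with NAD as the electron acceptor. The liver carries many of them, in the cytosol, the mitochondria and the endoplasmic reticulum, and they remove aldehydes that arise from alcohol, lipid peroxidation, retinol, folate and amino acid metabolism. The genes described here are 10 members of this family in mouse liver, *Aldh1a1*, *Aldh1a7*, *Aldh1b1*, *Aldh1l1*, *Aldh2*, *Aldh3a2*, *Aldh4a1*, *Aldh6a1*, *Aldh7a1* and *Aldh9a1*, out of 20283 genes with a symbol on the array. They were found by the RefSeq record of each array probe, and all 10 were present, with 12 probes in all. *Aldh6a1* and *Aldh7a1* had 2 probes each. The study named 3 of them for H2-water, *Aldh1a1*, *Aldh3a2* and *Aldh1l1*.

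All mice were male *db*/*db* mice, which lack a working leptin receptor and become obese and diabetic, with an age of 8 weeks on the labels. One set of mice drank water with H2 dissolved at 0.8 mM for 14 days, and their controls drank the same water after degassing. The other mice received MgH2, a powder that releases H2 in the stomach, by gavage once a day for 1, 3 or 7 days, at 0.9 mg/kg on the labels (the methods of the study name other doses), with Mg(OH)2 as the control. Each group had 3 two-color arrays, and on each array RNA pooled from the livers of 3 treated mice (Cy5) was hybridized with RNA pooled from 3 control mice (Cy3). The value of a gene is therefore the log2 ratio of treated over control on an array, where 0 is no difference and 0.26 is about 1.2-fold. The dyes were not swapped on any array, so the dye and the treatment cannot be told apart in a ratio that is the same in all 4 groups. A difference between groups cancels a dye bias that all arrays share. Pooled whole liver was measured, so fewer cells of a type and less RNA per cell cannot be told apart either.

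Of the probes, 51.8% to 56.5% were above background in both channels on an array, and no spot was saturated. All 12 ALDH probes were above background on all 12 arrays. Of the 7 hepatocyte markers on the array, 6 were above background on all 12 arrays and *Fgb* was usable on 11, while 0 of 5 pancreas acinar markers were above background on all of them and 2 of 5 were above it on none. Markers of other cell types moved with the MgH2 groups. Of all probes tested, 12.3% were called higher and 11.1% lower at 3 days, and 15.3% and 14.3% at 7 days. Of the 5 Kupffer cell markers, 3 were called lower at 3 and at 7 days (*Cd5l*, *Vsig4* and *Clec4f*) and 0 higher, with group means of single markers from -0.47 to 0.25 and from -0.47 to 0.30, and the log2 ratio of the summed markers ran from -0.45 to -0.33 at 3 days, from -0.45 to -0.38 at 7 days, from -0.34 to -0.08 at 1 day and from -0.20 to 0.26 at 14 days. The 6 hepatocyte markers summed to a log2 ratio of 0.04 to 0.14 at 1 day, 0.13 to 0.19 at 3 days, 0.17 to 0.26 at 7 days and -0.05 to 0.05 at 14 days. Such a sum weighs the brightest markers most. Of 7 tested singly, with *Fgb*, 0 were called higher and 1 lower at 1 day, 1 and 0 at 3 days, and 2 and 0 at 7 days. Their means ran from -0.19 to 0.38 at 1 day. At 14 days 0 of 6 were called, 5 had an unadjusted p under 0.05 by limma, and the means ran from -0.34 to 0.19. Of 3 markers of other leukocytes tested, *S100a8* was lower at 3 and 7 days (-0.68 and -0.97), *Ptprc* at 1 and 7 days (-0.59 and -0.70), and *Cd3e* was higher at 3 days (0.11) and lower at 14 days (-0.16). Of 4 endothelial markers, *Lyve1* was higher (0.58 and 0.68) and *Clec4g* lower (-0.24 and -0.35) at 3 and 7 days, and *Stab2* was higher at 3 days (0.22). *Lrat*, 1 of 3 stellate cell markers tested, was lower at 3 and 7 days (-0.47 and -0.44), and *Alas2*, 1 of 4 red blood cell markers, at 3, 7 and 14 days (-0.56, -0.70 and -0.41). Their part in the ALDH results at 3 and 7 days was not tested.

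*Aldh1a1*, the cytosolic enzyme that oxidizes retinal to retinoic acid, rose after 3 and 7 days of MgH2 and after 14 days of H2-water. Its log2 ratios were 0.06, 0.06 and 0.07 on the arrays of 1 day, 0.13, 0.29 and 0.21 at 3 days, 0.31, 0.28 and 0.26 at 7 days, and 0.36, 0.23 and 0.28 at 14 days. All 12 arrays were above 0, and the arrays of 1 day lay below all arrays of the other groups. The mean was 0.21 (SE 0.037, adjusted p = 0.00424) at 3 days, 0.28 (SE 0.037, adjusted p = 0.00062) at 7 days and 0.29 (SE 0.037, adjusted p = 0.00157) at 14 days by limma with Benjamini-Hochberg adjustment over all probes tested, which is 1.16-, 1.22- and 1.22-fold. At 1 day it was 0.07 (SE 0.037, adjusted p = 0.298). These 3 calls were kept without any single array of the group. Raw intensities were also given another background correction and another dye normalization (normexp with loess). The log2 ratio of *Aldh1a1* was then 0.25 at 1 day (adjusted p = 0.00405), 0.39 at 3 days and 0.46 at 7 days. At 14 days it was at most 0.40 over the settings that left out no single array. The difference of 14 days from 1 day ran from 0.14 to 0.24 over these settings and was not called.

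*Aldh1l1* encodes the cytosolic formyltetrahydrofolate dehydrogenase, which takes carbon units out of the folate pool. It rose at 3, 7 and 14 days, with more spread between arrays than *Aldh1a1*. The log2 ratios were 0.20, -0.11 and 0.00 at 1 day, 0.30, 0.41 and 0.14 at 3 days, 0.39, 0.33 and 0.10 at 7 days, and 0.43, 0.23 and 0.23 at 14 days. The arrays of 3 and 7 days overlapped those of 1 day, while all 3 arrays of 14 days were above them. The means of 0.28 (SE 0.077, adjusted p = 0.0245), 0.28 (SE 0.077, adjusted p = 0.0225) and 0.30 (SE 0.077, adjusted p = 0.0425) correspond to 1.22-, 1.21- and 1.23-fold. At 14 days the call was lost without any of the 3 arrays (adjusted p = 0.24 without replicate 1, 0.117 without replicate 2 and 0.131 without replicate 3) and with channel totals (adjusted p = 0.0551). At 3 days it was lost without replicate 1 (adjusted p = 0.0931) or 2 (0.152), and at 7 days without replicate 1 (0.136) or 2 (0.105). With normexp and loess the log2 ratio was 0.49 at 3 and at 7 days. Over the settings that left out no single array, it reached up to 0.22 at 1 day without a call. The difference from 1 day over these settings ran from 0.25 to 0.27 at 3 days and from 0.24 to 0.27 at 7 days. Neither difference was called (adjusted p = 0.3 and 0.191 by limma).

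*Aldh3a2*, the fatty aldehyde dehydrogenase of the endoplasmic reticulum, which oxidizes long-chain aldehydes from fatty alcohols and sphingolipids, moved in opposite directions under the 2 treatments. It was lower after 3 and 7 days of MgH2 and higher after 14 days of H2-water. The log2 ratios were 0.06, -0.07 and 0.06 at 1 day, -0.12, -0.08 and -0.23 at 3 days, -0.23, -0.27 and -0.18 at 7 days, and 0.38, 0.24 and 0.29 at 14 days. All 6 arrays of 3 and 7 days were below 0, all 3 arrays of 14 days were above 0 and above all 9 arrays of MgH2, while the arrays of 3 and 7 days overlapped. The mean fell by 0.14 at 3 days (SE 0.044, adjusted p = 0.04) and by 0.23 at 7 days (SE 0.044, adjusted p = 0.00405), and at 14 days it was 0.30 (SE 0.044, adjusted p = 0.00337), or 1.23-fold. At 3 days the call was lost without any of the 3 arrays (adjusted p = 0.0925, 0.0718 and 0.219 without replicates 1, 2 and 3), whereas at 7 and 14 days it was kept without any single array. The methods' t-test, which sets the 3 Cy5 values against the 3 Cy3 values without pairing them, gave unadjusted p = 0.138 at 7 days and 0.337 at 3 days.

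The difference between 14 days of H2-water and 7 days of MgH2 was 0.53 for *Aldh3a2* (SE 0.061, 95% interval 0.39 to 0.67, adjusted p = 0.0069 by limma), or 1.45-fold. This comparison was added after the values had been seen. Here 6.61% of 18674 probes were called in either direction, and of the 10 ALDH genes only *Aldh3a2* was called. It was also called under all 10 other settings and without any of the 6 arrays, with differences between 0.49 and 0.56. The groups differ in agent, route, duration, mice, slide and the software version of the image analysis, which cannot be told apart. Of the 5 Kupffer cell markers, 3 were called higher and 0 lower in the same comparison, with differences of single markers from -0.22 to 0.58. Of the other markers, *S100a8*, *Ptprc* and *Lrat* were higher (0.88, 0.72 and 0.53) and *Lyve1*, *Alb* and *Cd3e* lower (-0.55, -0.27 and -0.22), and the part of these markers in the result was not tested. *Aldh1a1* (0.01, 95% interval -0.11 to 0.12) and *Aldh1l1* (0.02, 95% interval -0.22 to 0.26) were not called in this comparison. For *Aldh1a7* the difference was 0.20 (SE 0.061, adjusted p = 0.0731), and its groups did not overlap, as was so for 2 of the 10 genes and 32.4% of all probes tested.

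The upstream sequence of *Aldh3a2* is shown because it is the 1 member that was called in both directions. It is the 250 bases before the RefSeq start site on the minus strand of GRCm38.p6, chr11:61267187-61267436, with a GGGCGG and a CCAAT motif in capitals.
*Aldh3a2*: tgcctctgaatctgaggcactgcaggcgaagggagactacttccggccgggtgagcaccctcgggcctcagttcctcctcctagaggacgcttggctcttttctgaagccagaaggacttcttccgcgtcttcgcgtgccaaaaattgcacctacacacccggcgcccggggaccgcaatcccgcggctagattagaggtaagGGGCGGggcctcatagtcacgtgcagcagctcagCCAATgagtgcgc
On either strand, GGGCGG is present in 32.7% and CCAAT in 33.8% of 32851 RefSeq upstream windows of this length. AGGTCA, a unit to which many nuclear receptors are known to bind, was present in 14% of all windows. Of the 10 ALDH windows, which covered 8 of the 10 genes, it was found in that of *Aldh1l1* and in 1 of the 2 of *Aldh6a1*. No sequence was given for *Aldh2* and *Aldh7a1*.

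**Figure D1:**
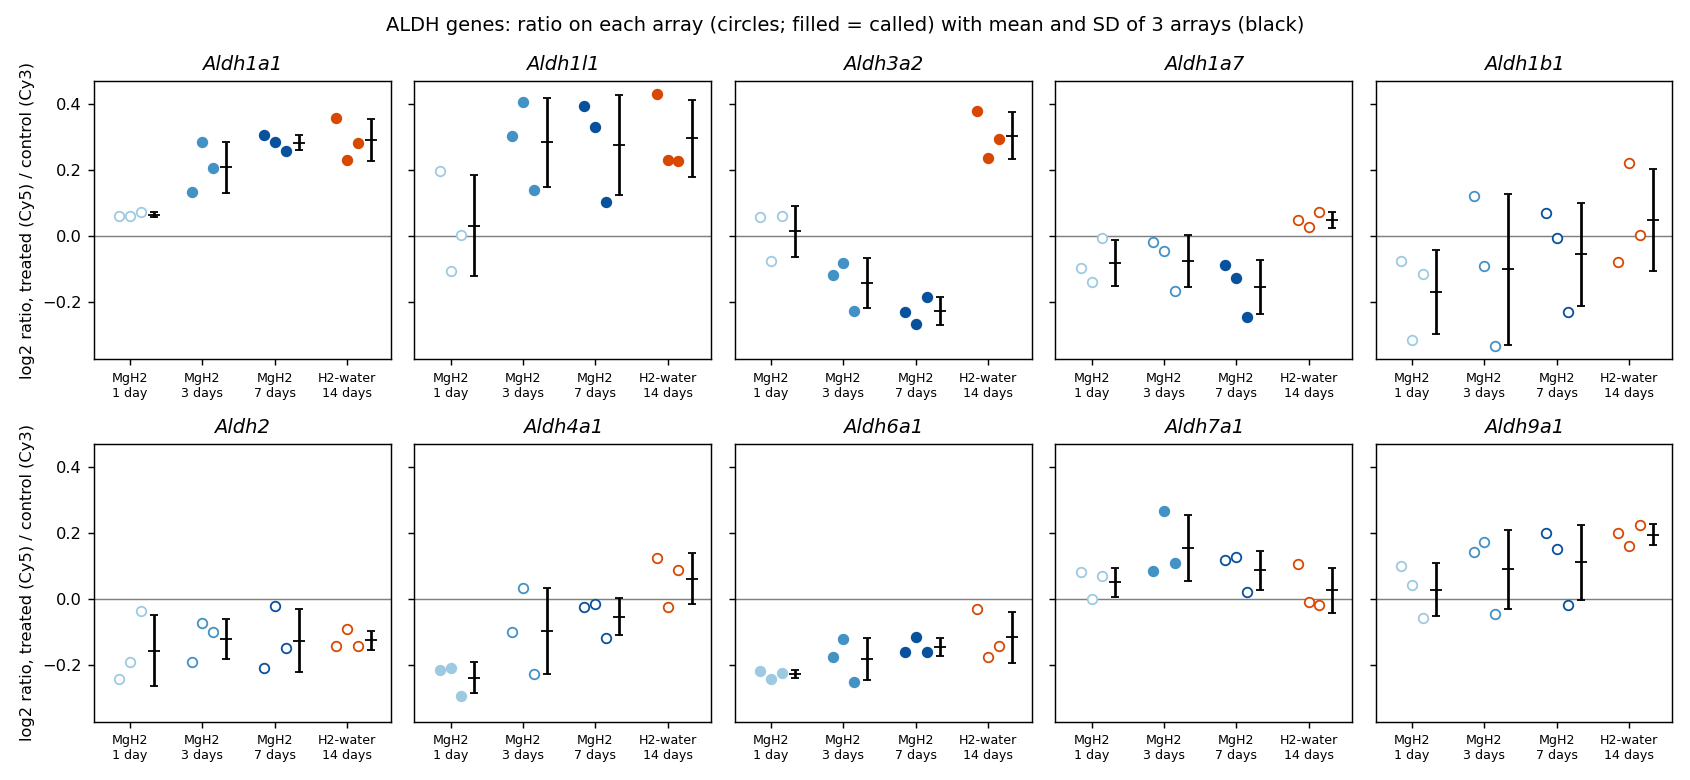
Log2 ratio of treated (Cy5) over control (Cy3) on the y axis for each of the 10 ALDH genes, with the 4 groups on the x axis. Circles are single arrays, filled where the group was called at an adjusted p under 0.05, and black marks are the mean and SD of 3 arrays. *Aldh3a2* lies between -0.27 and -0.08 at 3 and 7 days of MgH2 and between 0.24 and 0.38 at 14 days of H2-water, while *Aldh1a1* lies above 0 on all 12 arrays.

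*Aldh1a7* is a close rodent paralog of *Aldh1a1* that lies near it on the same chromosome. Its log2 ratios were -0.10, -0.14 and -0.01 at 1 day, -0.02, -0.04 and -0.17 at 3 days, -0.09, -0.13 and -0.25 at 7 days, and 0.05, 0.03 and 0.07 at 14 days. All 9 arrays of MgH2 were below 0 and all 3 of H2-water above it. It was lower by the test only at 7 days, where it fell by 0.15 (SE 0.043, adjusted p = 0.0239), and this call was lost without replicate 2 (adjusted p = 0.064) or 3 (0.17). At 7 days the paralogs thus were called in opposite directions, *Aldh1a1* at 0.28 and *Aldh1a7* at -0.15. Probe sequences were not used here, so whether the probe of either paralog also binds RNA of the other was not tested. Over the 12 arrays the ratios of *Aldh1a1* and *Aldh1a7* had a Pearson r of 0.17, as a description over arrays that share groups.

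The upstream sequences of this pair are shown because the ratios of the paralogs differed while the sequences before their starts are alike. Both are the 250 bases before a RefSeq start site in GRCm38.p6, for *Aldh1a1* chr19:20601718-20601967 on the plus strand and for *Aldh1a7* chr19:20727557-20727806 on the minus strand. Capitals mark the longest run that is identical in both.
*Aldh1a1*: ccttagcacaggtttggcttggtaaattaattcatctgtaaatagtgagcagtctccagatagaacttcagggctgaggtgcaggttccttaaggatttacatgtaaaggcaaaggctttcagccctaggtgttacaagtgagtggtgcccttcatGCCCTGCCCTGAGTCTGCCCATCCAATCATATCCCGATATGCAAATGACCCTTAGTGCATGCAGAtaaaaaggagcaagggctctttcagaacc
*Aldh1a7*: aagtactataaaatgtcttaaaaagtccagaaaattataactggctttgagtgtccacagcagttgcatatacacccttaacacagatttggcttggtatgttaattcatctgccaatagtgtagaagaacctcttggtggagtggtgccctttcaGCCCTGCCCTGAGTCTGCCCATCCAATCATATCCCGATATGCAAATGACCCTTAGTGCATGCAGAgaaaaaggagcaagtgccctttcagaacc
The identical run had 65 bases and lay 94 to 30 bases before the start in both genes. Of the last 100 bases, 94 were the same at the same position. The run holds a CCAAT motif and an ATGCAAAT octamer, and the octamer was present in 1.6% of the 32851 windows on either strand. *Aldh1a1* has another RefSeq start site, whose upstream window shared no run over 8 bases with *Aldh1a7*.

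The mitochondrial enzymes *Aldh2*, which oxidizes acetaldehyde and also aldehydes from lipid peroxidation, and *Aldh1b1*, a related enzyme with similar substrates, were not called in any group. *Aldh2* was below 0 on all 12 arrays, with log2 ratios of -0.24, -0.19 and -0.04 at 1 day, -0.19, -0.07 and -0.10 at 3 days, -0.21, -0.02 and -0.15 at 7 days, and -0.14, -0.09 and -0.14 at 14 days. The 4 group means lay between -0.16 and -0.12, with adjusted p values of 0.0712, 0.0974, 0.0752 and 0.145 in the order of the days. With every group below 0, dye and treatment cannot be told apart for *Aldh2*, and no difference between groups was called. When each channel was divided by its total, *Aldh2* was called lower at 1, 3 and 7 days (adjusted p = 0.0253, 0.0367 and 0.0306). This scaling lowers every ratio, with medians over all probes tested of -0.038, -0.028 and -0.019 on these days. Under it, 1580, 2821 and 3351 probes were called lower and 717, 1759 and 2382 higher. Without it, 833, 2149 and 2775 were called lower and 1013, 2388 and 2973 higher. *Aldh1b1* ran from -0.33 to 0.12 over the 3 arrays of 3 days, with SDs of 0.13 to 0.23 in the 4 groups (n = 3 each), and its adjusted p values were 0.277, 0.465, 0.687 and 0.8.

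*Aldh4a1* and *Aldh6a1*, mitochondrial enzymes of proline breakdown and of valine and pyrimidine breakdown, were lower after 1 day of MgH2. The log2 ratios of *Aldh4a1* were -0.21, -0.21 and -0.29 at 1 day, -0.10, 0.03 and -0.23 at 3 days, -0.02, -0.02 and -0.12 at 7 days, and 0.12, -0.03 and 0.09 at 14 days. It fell by 0.24 at 1 day (SE 0.051, adjusted p = 0.0188) and was called in no other group. Without replicate 1, 2 or 3 of that day its adjusted p was 0.0706, 0.0839 and 0.0975, so the call rested on all 3 arrays.

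*Aldh6a1* was below 0 on all 12 arrays by its brighter probe, with -0.22, -0.24 and -0.22 at 1 day, -0.18, -0.12 and -0.25 at 3 days, -0.16, -0.12 and -0.16 at 7 days, and -0.03, -0.18 and -0.14 at 14 days. It fell by 0.23 at 1 day (SE 0.037, adjusted p = 0.00653), by 0.18 at 3 days (adjusted p = 0.00781) and by 0.15 at 7 days (adjusted p = 0.0158), and at 14 days the mean was -0.12 (adjusted p = 0.0852). Dye and treatment cannot be told apart for this probe, which was below 0 in every group. No difference between groups was called for it. The other probe of the gene had means of 0.00, 0.01, 0.10 and 0.07 and was not called. With the mean of the 2 probes no group was called (adjusted p = 0.126, 0.183 and 0.748 at 1, 3 and 7 days), so the result holds for 1 probe of this gene. With the brighter probe the call was lost without replicate 2 at 1 day (adjusted p = 0.0553), replicate 3 at 3 days (0.0544) and replicates 1 (0.0778) or 3 (0.083) at 7 days.

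*Aldh7a1*, which acts in lysine breakdown and on betaine aldehyde, was higher at 3 days, with log2 ratios of 0.08, 0.27 and 0.11 and a mean of 0.15 (SE 0.045, adjusted p = 0.0324). Its ratios at 7 days were 0.12, 0.13 and 0.02, and the mean of 0.09 was not called (adjusted p = 0.17), nor were those of 0.05 at 1 day and 0.03 at 14 days. The call at 3 days was lost without replicate 2 (0.10, adjusted p = 0.216) or 3 (adjusted p = 0.0697), with channel totals (adjusted p = 0.0671) and with the mean of the 2 probes (0.02, adjusted p = 0.839). With normexp and loess the gene was called higher at 1 day (0.18, adjusted p = 0.0252) and 7 days (0.20, adjusted p = 0.00559) as well. A dim probe of another transcript record, with Cy3 intensities of 34.4 to 48.9, was below 0 on all 12 arrays and was not called in any group.

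*Aldh9a1*, which oxidizes aldehydes of the carnitine and polyamine pathways, had log2 ratios of 0.20, 0.16 and 0.22 at 14 days. The mean of 0.19 (SE 0.055, adjusted p = 0.0567 by limma) missed the threshold. Of 12 other settings that left out no single array, 4 called it. The limma adjusted p was 0.0465 with the replicate number as a block, 0.0323 with the slide as a block and 0.0469 with normexp and loess. The methods' t-test gave an unadjusted p of 0.00489. With any 1 array of the group left out, the limma adjusted p was 0.152 to 0.242. In the MgH2 groups the means were 0.03, 0.09 and 0.11, none of them called, and replicate 3 was below 0 on each of the 3 days.

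Counted over the 10 genes, 0 were higher and 2 lower at 1 day, where 5.15% of all probes tested were called higher and 4.24% lower. At 3 days 3 were higher and 2 lower (12.3% and 11.1% of all probes), and at 7 days 2 were higher and 3 lower (15.3% and 14.3%). At 14 days 3 were higher and 0 lower (4.92% and 3.91%), and the 3 were *Aldh1a1*, *Aldh1l1* and *Aldh3a2*. The study had named these 3 on the same arrays, so their count at 14 days is not independent evidence. The median log2 ratio of the 10 genes was -0.03, -0.09, -0.05 and 0.06 at 1, 3, 7 and 14 days, against -0.0033, 0.0022, 0.0061 and -0.0049 over all probes tested. When only the 3 arrays of a group were fitted, *Aldh1a1* at 7 days was the 1 call that was kept. Without a filter on dim probes, the calls of *Aldh4a1* at 1 day, *Aldh1l1* at 3 and 14 days, *Aldh3a2* and *Aldh7a1* at 3 days and *Aldh1a7* at 7 days were lost (adjusted p = 0.0556 to 0.141).

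On the MgH2 arrays, which were not used to name them, 0 of the 3 named genes were called at 1 day, and all 3 at 3 and 7 days, *Aldh1a1* and *Aldh1l1* higher and *Aldh3a2* lower. Of the other 7, 2 were called in each of the MgH2 groups and 0 at 14 days. The mean log2 ratio of the 3 minus that of the other 7 was 0.20, 0.11 and 0.14 on the arrays of 1 day, 0.13, 0.18 and 0.19 at 3 days, 0.17, 0.12 and 0.19 at 7 days, and 0.36, 0.22 and 0.26 at 14 days. It was above 0 on all 9 arrays of MgH2. All arrays held the treated pool in Cy5, so a dye bias of a probe that favoured the naming would recur on them. The MgH2 arrays are therefore not an independent check of the naming, and they may share control RNA. On the 3 arrays of 14 days, on which the 3 genes had been named, the naming itself favours a difference above 0, so those values are a description. The means were 0.15 ± 0.046, 0.16 ± 0.034, 0.16 ± 0.037 and 0.28 ± 0.072 (SD, n = 3).

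**Figure D2:**
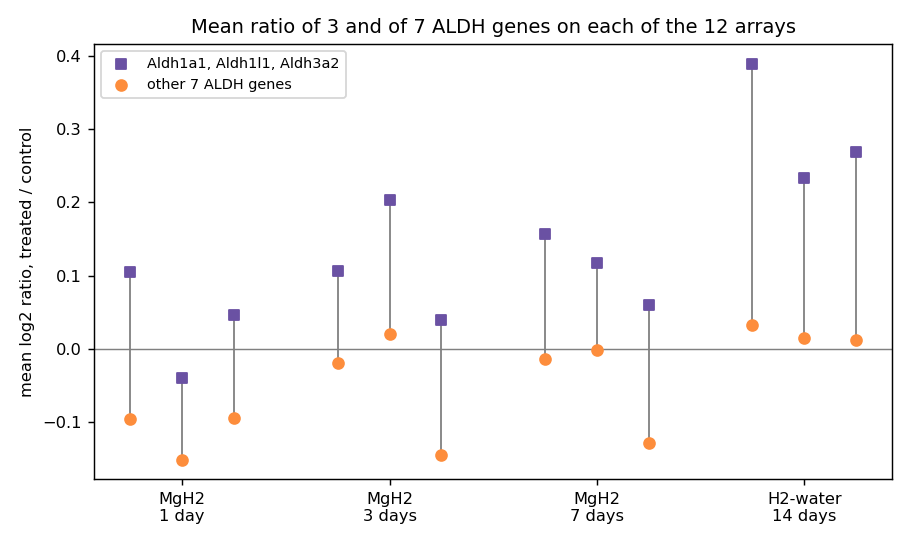
Mean log2 ratio of treated over control (y axis) of *Aldh1a1*, *Aldh1l1* and *Aldh3a2* (squares) and of the other 7 ALDH genes (circles) on each of the 12 arrays, by group (x axis), with a line joining the values of an array. The squares lie above the circles by 0.11 to 0.20 on the 9 arrays of MgH2, and by 0.22 to 0.36 on the 3 arrays of 14 days, on which the 3 genes had been named.

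Changes over time were tested as differences between groups. From 1 to 7 days of MgH2, where 6.98% of all probes were called in either direction, *Aldh1a1* rose by 0.22 (SE 0.052, adjusted p = 0.0362) and *Aldh3a2* fell by 0.24 (SE 0.062, adjusted p = 0.0443), and for both genes the arrays of the groups did not overlap, as for 4 of the 10 genes and 28.5% of all probes tested. The calls kept their direction but were lost without any single one of the 6 arrays, with adjusted p of 0.0775 to 0.103 for *Aldh1a1* and 0.0535 to 0.112 for *Aldh3a2*. *Aldh1l1* differed by 0.24 (95% interval 0.00 to 0.49, adjusted p = 0.191) and *Aldh4a1* by 0.19 (adjusted p = 0.139). No slide held arrays of 1 and of 7 days. Within the slide that held 1 array of 3 days and all 3 of 1 day, the difference was 0.07 for *Aldh1a1* and -0.13 for *Aldh3a2*, and within the slide that held 2 arrays each of 7 and 3 days it was 0.05 and -0.09.

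From 1 to 3 days 0 of the 10 genes were called by limma, with 3 under an unadjusted p of 0.05, where 0.0208% of all probes were called, and the arrays did not overlap for 3 of the 10 genes and 19.2% of all probes. From 3 to 7 days 0 were called and 0 had an unadjusted p under 0.05, with 0% of all probes called, and the arrays did not overlap for 0 of the 10 genes and 8.23% of all probes. For 14 days of H2-water against 1 day of MgH2, 0 were called and 4 had an unadjusted p under 0.05, with 0.0748% of all probes called, and the lowest adjusted p was that of *Aldh3a2* (0.29, SE 0.061, adjusted p = 0.117). The arrays of 14 days did not overlap with those of 1 day for 7 of the 10 genes, all higher at 14 days. Of all probes tested, 9.47% were higher at 14 days without overlap, and 19.7% did not overlap in either direction. *Aldh1a1*, *Aldh1l1* and *Aldh3a2* were among these 7 genes, and the study had named them on the 14-day arrays. The naming favours a higher value there, so the count of 7 is a description.

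The levels in the single channels were given as log2 intensity over the 75th percentile of the channel. *Aldh3a2* had control levels of 2.93, 2.88 and 2.94 (means of 3 arrays) at 1, 3 and 7 days and 2.73 at 14 days, and treated levels of 2.95, 2.73, 2.70 and 3.03. Within the MgH2 groups its level varied more between replicates (SD 0.13 to 0.16 in Cy3) than the ratio (SD 0.042 to 0.077). Replicate 3 had its highest control level on each of the 3 days. The same replicate number was highest in Cy3 at 1, 3 and 7 days for 6 of the 10 genes, and in Cy5 for 2 of the 10. The sources used here do not say whether 1 control pool served on several days, so the MgH2 groups may share control RNA. *Aldh1a1* had control levels of 8.25, 8.23 and 8.21 in the MgH2 groups and 7.51 at 14 days, and *Aldh1l1* of 8.47, 8.40 and 8.40 and 7.59, where mice, treatment of the controls, slide and software version differ together.

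**Figure D3:**
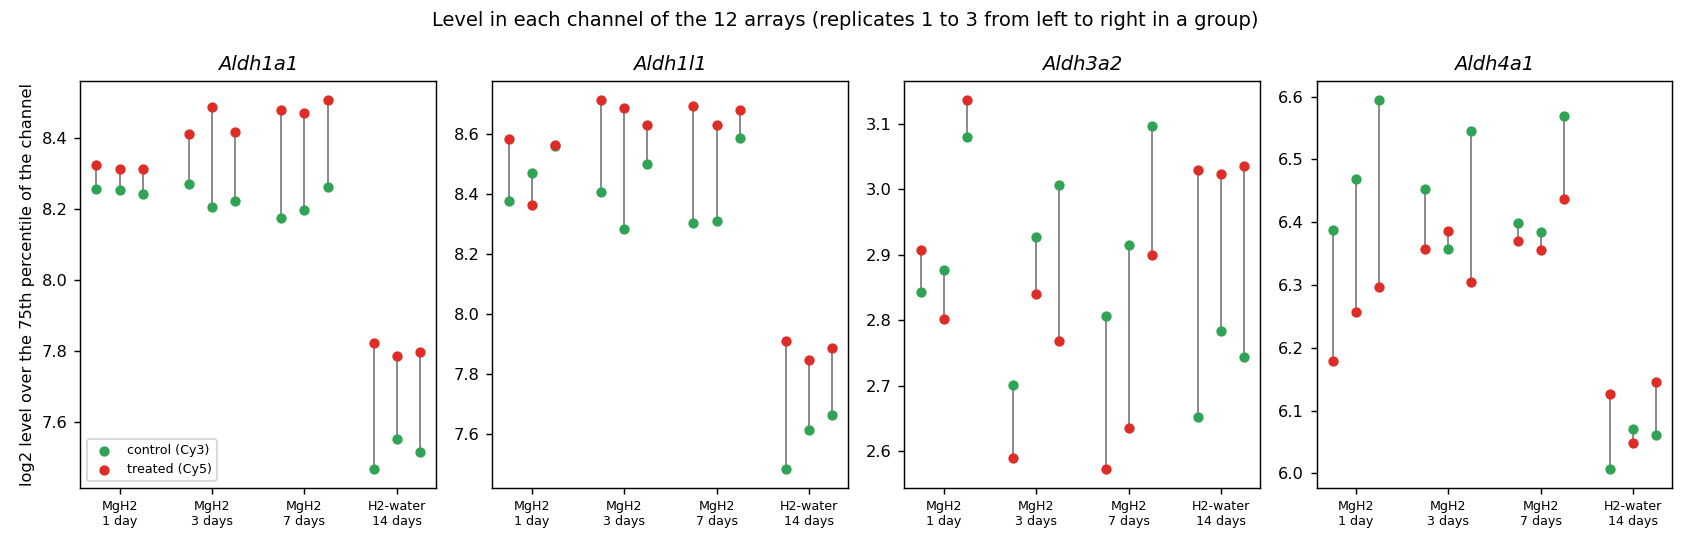
Level of *Aldh1a1*, *Aldh1l1*, *Aldh3a2* and *Aldh4a1* in the control (Cy3, green) and treated (Cy5, red) channel of each array, as log2 intensity over the 75th percentile of the channel (y axis, scaled per gene), by group (x axis), with replicates 1 to 3 from left to right and a line joining the channels of an array. For *Aldh3a2* the treated pool lies below the control pool at 3 and 7 days and above it at 14 days.

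Of 11 further ALDH genes, 10 were on the array and 5 or 6 were above background in a comparison. *Aldh8a1*, a retinal dehydrogenase also known for tryptophan breakdown, fell by 0.22, 0.21 and 0.18 at 1, 3 and 7 days (adjusted p = 0.0121, 0.00638 and 0.00976). At 14 days its log2 ratios were -0.12, -0.16 and -0.12 and it was not called. For a gene below 0 in every group, dye and treatment cannot be told apart. *Aldh16a1*, a family member without known catalytic activity, was higher at 3 days (0.17, adjusted p = 0.019) and at 7 days (0.18, adjusted p = 0.0115). *Aldh5a1*, the succinate-semialdehyde dehydrogenase of GABA breakdown, was higher at 7 days (0.15, adjusted p = 0.043) and at 14 days (0.22, adjusted p = 0.0269). In all, 0 of 5 were higher and 1 lower at 1 day, 1 of 6 higher and 1 lower at 3 days, 2 of 6 higher and 1 lower at 7 days, and 1 of 6 higher and 0 lower at 14 days. Over all probes tested, the shares called higher were 5.15%, 12.3%, 15.3% and 4.92% in the order of the days. The shares called lower were 4.24%, 11.1%, 14.3% and 3.91%. The medians of the tested genes were -0.07, 0.03, 0.09 and -0.05.

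Among the alcohol dehydrogenases and aldehyde oxidases, which form or oxidize aldehydes by other routes, 5 of 10 genes were above background, and all calls were lower. At 3 days 2 of the 5 were called lower and at 7 days 3, against 11.1% and 14.3% of all probes tested. At 1 and 14 days those shares were 4.24% and 3.91%. *Adh4*, an alcohol dehydrogenase with retinol among its substrates, fell by 0.49 at 3 days (adjusted p = 0.0156) and by 0.59 at 7 days (adjusted p = 0.00478). *Adh5*, the glutathione-dependent formaldehyde dehydrogenase, fell by 0.16 at 3 days (adjusted p = 0.0313). The aldehyde oxidases *Aox3* and *Aox1* fell by 0.45 and 0.23 at 7 days (adjusted p = 0.0415 and 0.00469). At 1 and 14 days 0 of the 5 were called by limma, with 1 at an unadjusted p under 0.05 at 1 day and 3 at 14 days. The medians of the 5 were -0.07, -0.16, -0.23 and -0.12 at 1, 3, 7 and 14 days.

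The reductases and conjugating enzymes that dispose of 4-hydroxynonenal and other aldehydes without oxidizing them were all above background, 10 of 10. Of these, 3 were higher and 1 lower at 3 days, 2 higher and 2 lower at 7 days, and 0 higher and 1 lower at 1 and at 14 days, with medians of -0.05, -0.05, -0.07 and -0.02 at 3, 7, 1 and 14 days. In the same order of days, 12.3%, 15.3%, 5.15% and 4.92% of all probes tested were called higher. The shares called lower were 11.1%, 14.3%, 4.24% and 3.91%. *Akr1b7*, an aldose reductase family member, was higher by 0.61 at 3 days (adjusted p = 0.0256) and by 0.80 at 7 days (adjusted p = 0.00638). *Cbr1*, a carbonyl reductase, was higher by 0.37 (adjusted p = 0.00427) and 0.44 (adjusted p = 0.00114), while *Akr1b8* fell by 0.20 and 0.22 (adjusted p = 0.0432 and 0.0257). *Akr7a5*, an aflatoxin aldehyde reductase, fell by 0.14 at 1 day (adjusted p = 0.0246) and by 0.12 at 14 days (adjusted p = 0.0403). *Akr1b7* and *Cbr1* differed between 14 days of H2-water and 7 days of MgH2 by -0.995 and -0.467 (adjusted p = 0.0364 and 0.0228).

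Of 25 enzymes that act directly before or after one of the 10 genes, 24 were tested. At 1 day 1 was higher and 5 were lower, at 3 days 7 and 3, at 7 days 6 and 5, and at 14 days 3 and 0, and the medians were -0.09, -0.01, 0.07 and 0.06. Of all probes tested, 5.15%, 12.3%, 15.3% and 4.92% were called higher at 1, 3, 7 and 14 days. Called lower were 4.24%, 11.1%, 14.3% and 3.91%. *Rdh1*, a retinol dehydrogenase that forms the retinal used by *Aldh1a1*, was higher in all 4 groups, by 0.89, 0.74, 0.77 and 0.65 (adjusted p = 0.00016, 0.000462, 0.000248 and 0.00202). Its ratio was high in every group and no dye was swapped, so dye and treatment cannot be told apart for it. At 1 day *Upb1*, of pyrimidine breakdown beside *Aldh6a1*, fell by 0.29 (adjusted p = 0.0157), and *Mthfd1*, which makes the substrate of *Aldh1l1*, by 0.25 (adjusted p = 0.00623). *Aass*, which starts lysine breakdown ahead of *Aldh7a1*, was higher by 0.48 at 3 days and 0.46 at 7 days (adjusted p = 0.00178 and 0.00142). *Cyp4a14*, a fatty acid omega-hydroxylase known as a PPARα target, was higher by 0.40 at 3 days (adjusted p = 0.0207), a time at which *Aldh3a2* was lower, and its family member *Cyp4a12b* fell by 0.47 at 7 days (adjusted p = 0.0139). Of this family *Cyp4a12a* was also lower at 7 days (-0.44), while *Cyp4a14*, *Cyp4a10* and *Cyp4a32* were higher (0.36, 0.28 and 0.23). At 14 days *Cyp4a32* and *Sat1*, the latter of polyamine breakdown, were higher by 0.25 and 0.17 (adjusted p = 0.0316 and 0.019). Closely related genes such as those of the Cyp4a cluster can share probe signal.

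**Figure D4:**
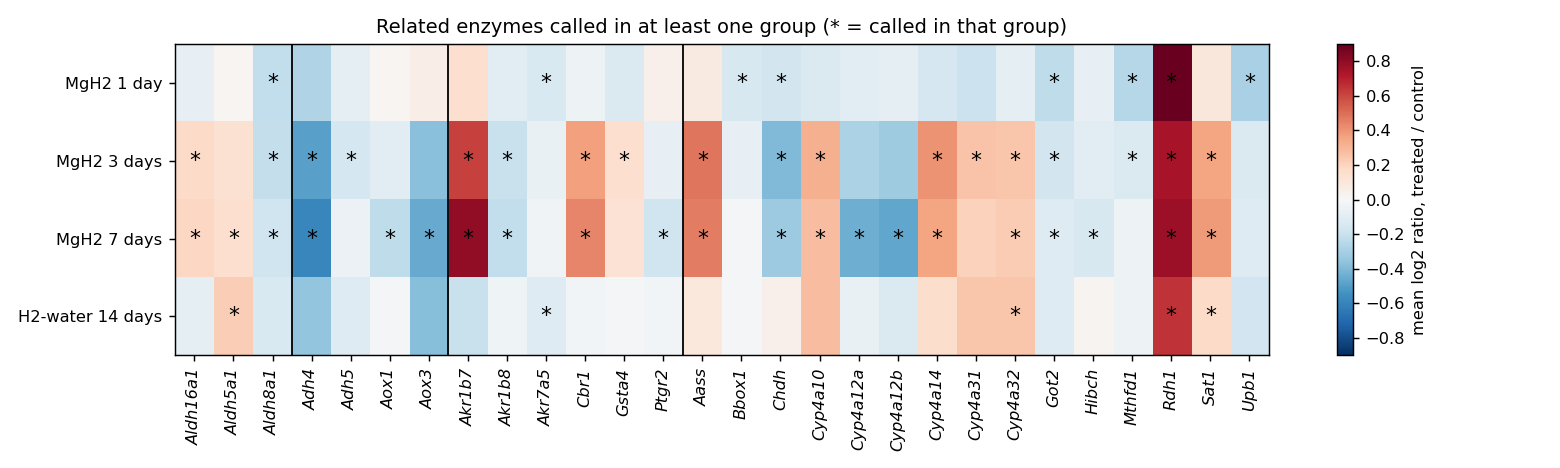
Mean log2 ratio of treated over control (color) in the 4 groups (rows) for the related enzymes called in at least 1 group (columns), with stars where a group was called at an adjusted p under 0.05. Black lines part the ALDH relatives, the alcohol and aldehyde oxidizing enzymes, the reducing and conjugating enzymes, and the enzymes before or after an ALDH in its pathway. *Rdh1* is high in all 4 groups (0.65 to 0.89), where dye and treatment cannot be told apart, and *Akr1b7* at 3 and 7 days (0.61 and 0.80).

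The 10 genes did not vary as 1 group over the 12 arrays. As a description over arrays that share groups, slides and possibly control pools, the Pearson r between the ratios was 0.89 for *Aldh4a1* and *Aldh6a1*, 0.86 for *Aldh4a1* and *Aldh9a1*, 0.80 for *Aldh1a7* and *Aldh3a2* and 0.74 for *Aldh1a1* and *Aldh1l1*, against 0.12 for *Aldh1a1* and *Aldh3a2* and 0.10 for *Aldh1l1* and *Aldh3a2*. Among 11552 genes above background on all 12 arrays, the genes with ratios most like those of *Aldh3a2* were *Bphl*, a serine hydrolase (r = 0.95), *Vnn1*, a pantetheinase known as a PPARα target (r = 0.94), and *Anxa5* (r = 0.94). For *Aldh1a1* they were *Slc22a29*, *Ces1d*, a carboxylesterase, and *Zfp580* (r = 0.94, 0.94 and 0.93). For *Aldh1l1* they were *Myo1d*, *Gpt*, the alanine aminotransferase, and *Ppp3cb* (r = 0.93, 0.92 and 0.91).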

How the data were processed

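Values came from 12 two-color Agilent arrays of mouse liver and a table of log ratios. The intensity values deposited by the authors are background-subtracted and dye-normalized within an array by Feature Extraction (10.10.1 in the submitters' processing notes; 10.10.1.1 and, for 14 days, 10.7.3.1 in the file headers). The deposited table holds log2 ratios equal to the log10 ratio of the same deposited files, on the log2 scale, within 1.39e-06. The methods name an array format that the files do not match, and the header names a genome build from which no coordinate is printed.

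Of 43020 spots outside the controls, outlier spots (160 to 244 marked per array) were dropped, and log2 of Cy5 over Cy3 was averaged over the spots of a probe (39429 probes). Symbols came from RefSeq records (67.9% of probes). A gene is represented by its brightest probe. The methods scale by the total intensity of an array, which leaves its ratios as deposited.

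A linear model with 1 mean for each group was fitted to all arrays (limma 3.58.1, R 4.3.3). Tests of group means against 0 and of differences between them were two-sided. A probe entered a test where Cy3 and Cy5 were above background on every array it compares, the Benjamini-Hochberg adjustment covered all such probes, and a call needed an adjusted p under 0.05. P-values measure the spread between pools of mice, and the number of arrays limits the precision. The fit was tested on simulated data.

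Genes, lists and comparisons were chosen with earlier results of these data known. The genes named are all members, up to 3 called genes of largest size per list and comparison, and the 3 genes most like each of *Aldh1a1*, *Aldh3a2* and *Aldh1l1*. Groups came from the labels. Same-numbered MgH2 arrays deviated together (r 0.37 to 0.65 over 9 pairs, against -0.43 to 0.05 over 18 pairs of different numbers), in Cy3 (0.32 to 0.67) and not in Cy5 (-0.30 to 0.18). The mean of a group was first subtracted from its arrays, so r of different numbers tends to oppose that of the same number. The values of different numbers are therefore not an independent reference. With the 14-day arrays r was -0.04 to 0.29 for the same number and -0.26 to 0.07 for different numbers. Same-numbered arrays thus deviated together most within the MgH2 groups, and less so with the 14-day arrays. The replicate number was therefore used as a block in an alternative. Promoter sequences are those of RefSeq on GRCm38.p6. The p values in the deposited files, from an error model of single arrays, were not used. Other alternatives changed the scaling, centring, background correction with dye normalization, dim and marked spots, arrays fitted and deposited table. They also changed the probes of a gene, slide and test, and left out each array.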

Additional observations from a re-analysis of the deposited data

Results flagged for a closer look

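Differences between groups were followed up for *Aldh3a2*, *Aldh1a1* and *Aldh1a7*. *Aldh3a2* was higher by 0.53 at 14 days of H2-water than at 7 days of MgH2 and lower by 0.24 at 7 than at 1 day of MgH2 (difference -0.24), both by the test of the difference in limma. *Aldh1a1* was higher by 0.22 at 7 than at 1 day by the same test. Between 14 days of H2-water and 3 days of MgH2 the difference itself was not tested. There all 3 arrays of H2-water were above 0 and all 3 of MgH2 below it, for *Aldh3a2* (difference of means 0.45) and for *Aldh1a7* (difference of means 0.13). Groups of 3 arrays are too small for the search for single outlying arrays.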

How the results depend on the processing

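No called value of an ALDH gene changed its direction under any setting tried. With 3 arrays per group, a call near the threshold depends on the shared estimate of the spread. When only the arrays compared were fitted, 0 genes were called at 1, 3 and 14 days, 1 at 7 days and 0 from 1 to 7 days. The methods' t-test with Benjamini-Hochberg adjustment called 0, 0, 1 and 0 genes at 1, 3, 7 and 14 days. Without adjustment it called 4 genes at 1 day and 3 at 7 days. With normexp and loess, 4 genes were called at 1 day, 0 from 1 to 7 days and 1 for 14 days against 1 day, and the difference of the 3 named genes from the other 7 was 0.25, 0.28, 0.29 and 0.35 at 1, 3, 7 and 14 days. Without a filter on dim probes, 1 gene was called at 1 day, 2 at 3 days and 0 from 1 to 7 days. With the mean over the probes of a gene, 1 was called at 1 day and 3 at 3 days. With channel totals, 1 was called from 1 to 7 days. With the slide as a block, 2 were called for 14 against 7 days.

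With the replicate number as a block, 2, 5, 5 and 4 genes were called at 1, 3, 7 and 14 days, 2 from 1 to 7 days and 1 for 14 against 7 days, and 0 in the other differences. The block changed no call but that of *Aldh9a1*.

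Leaving out 1 array gave 0 to 1 called genes at 1 day, 2 to 3 at 3 days, 3 to 4 at 7 days, 2 to 2 at 14 days, 0 to 0 from 1 to 7 days and 1 to 1 for 14 against 7 days. All other counts stayed within 1.5 times. Signal over background limits the dim probe of *Aldh7a1*.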
